A study of Mus musculus with 11 samples.

Results

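The genes described here are 28 genes of sterol synthesis and cholesterol handling, followed through cultured mouse microglia that received a toll-like receptor 2 agonist, interferon-gamma, both or neither. They were taken from a fixed list by gene symbol and kept where the level was at least 1 FPKM (fragments per kilobase of transcript, scaled to the mapped fragments of the library) in at least 2 of the 11 libraries. All 28 passed, among 10938 genes that passed the same filter and 34745 genes in the table. They comprise 7 enzymes of the mevalonate stage, 11 enzymes from squalene synthesis onward, 4 regulators, and 6 genes of cholesterol transport, storage, hydrolysis and oxidation. The 4 called regulators here are Srebf2, which encodes the transcription factor SREBP2, and Scap, Insig1 and Insig2, which control it.

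RNA was sequenced from primary cultures of microglia; the donors were C57BL/6 mice, 6 to 8 weeks of age, and the tissue was cerebrum. Every culture was kept for 10 to 14 days with serum, 5 ng/ml TGF-beta1 and 10 ng/ml M-CSF, so the Control cultures carried both factors too. The group Pam3CSK4+IFN-gamma (n = 3) was given Pam3CSK4, a synthetic lipopeptide agonist of toll-like receptor 2, at 100 ng/ml for 24 h and then IFN-gamma at 20 ng/ml for 24 h. Pam3CSK4 alone had n = 2, IFN-gamma alone n = 3, and Control, with neither agent, n = 3. What the single-agent cultures received in the other treatment period is not given in the sources used here, nor is whether replicates were separate animals or cultures. The p-values therefore measure the spread between these libraries, which may be technical.

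Animal cells make cholesterol from acetyl-CoA. Hmgcs1 and the other mevalonate enzymes build isoprenoid units, Fdft1 and Sqle commit them to squalene and its epoxide, Lss closes the ring to lanosterol, and Cyp51 and the enzymes after it trim lanosterol to cholesterol. SREBP2, encoded by Srebf2, switches these genes on: when sterols are scarce, Scap escorts it out of the endoplasmic reticulum, and when sterols are abundant, the Insig proteins hold it there. Macrophages, a family that includes microglia, also take in cholesterol by phagocytosis, free it in lysosomes with Lipa, export it from lysosomes with Npc2 and Npc1, esterify it with Soat1, and oxidise it to 25-hydroxycholesterol with Ch25h, an oxysterol known to hold SREBP2 back.

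The 11 libraries held 15033702 to 20321017 counts each. All 12 microglial markers passed the filter, and their summed level was 7818 to 8142 FPKM in Pam3CSK4+IFN-gamma, 7733 to 7971 FPKM in Pam3CSK4, 13660 to 14610 FPKM in IFN-gamma and 8785 to 12650 FPKM in Control. Markers of mural cells and fibroblasts stood apart in Pam3CSK4+IFN-gamma replicate 3, IFN-gamma replicate 1 and Control replicate 3. Their 12 genes summed to 1.26 to 55.7 FPKM in Pam3CSK4+IFN-gamma, 2.30 to 3.85 FPKM in Pam3CSK4, 1.16 to 121 FPKM in IFN-gamma and 1.37 to 2213 FPKM in Control. The 9 oligodendrocyte markers summed to 7.87 to 9.54 FPKM in Pam3CSK4+IFN-gamma, 10.2 to 10.4 FPKM in Pam3CSK4, 14.2 to 15.4 FPKM in IFN-gamma and 9.66 to 13.4 FPKM in Control; Mbp, Mag and Cnp made up nearly all of it, and Mog and Mobp were listed at 0 in every library. The summed level of the 6 endothelial markers was lower wherever Pam3CSK4 had been given, at 2.79 to 4.98 FPKM in Pam3CSK4+IFN-gamma and 2.50 to 2.81 FPKM in Pam3CSK4, against 22.9 to 28.8 FPKM in IFN-gamma and 17.1 to 26.6 FPKM in Control; Flt1 made up most of the sums of IFN-gamma and Control replicates 1 and 2, Cdh5 that of Control replicate 3, and Cldn5 was listed at 0 in every library. The part of these 2 lists in the results below was not tested. The part of the other cells in the results was not tested; calls of members that change without those 3 libraries are given with the gene or, for Pam3CSK4+IFN-gamma against Pam3CSK4, together after the counts. In these bulk libraries, fewer cells of a type and less RNA per cell cannot be told apart.

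Most of the 28 sterol genes were lower after Pam3CSK4, whether or not IFN-gamma followed. Calls are adjusted p under 0.05 in edgeR's quasi-likelihood test over all 10938 genes. In Pam3CSK4 against Control, 18 of the 28 were lower and 1 was higher, where 21.4% of all genes tested were lower and 20.0% higher; the median log2 change was -0.53, beside -0.043 over all genes. In Pam3CSK4+IFN-gamma against IFN-gamma, a comparison that shares no library with the first, 20 were lower and 2 higher, where 17.2% of all genes were lower and 17.0% higher; the median was -0.68, beside -0.018. Pam3CSK4+IFN-gamma against Control gave 19 lower and 2 higher, where 24.2% of all genes were lower and 23.4% higher, with a median of -0.68 beside -0.039. By contrast IFN-gamma against Control gave 5 lower and 6 higher, near the background of 21.6% and 20.0%, with a median of -0.002 beside -0.069. In Pam3CSK4+IFN-gamma against Pam3CSK4, 4 were lower and 0 higher, where 3.04% of all genes were lower and 6.06% higher, with a median of -0.32 beside -0.001. At an unadjusted p under 0.05 in edgeR's test, 3 members were higher there and 13 lower. The share of all genes past that threshold was not worked out. DESeq2 and limma called 0 members higher there after adjustment.

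Of the 18 synthesis enzymes alone, 12 were lower in Pam3CSK4 against Control, 15 in Pam3CSK4+IFN-gamma against IFN-gamma and 13 in Pam3CSK4+IFN-gamma against Control. Of all genes, 24.2% were lower in the last of these comparisons. In all, 16 members were lower after Pam3CSK4 both without and with IFN-gamma. The share of all genes lower in both was not worked out. Singly it was 21.4% in Pam3CSK4 against Control and 17.2% in Pam3CSK4+IFN-gamma against IFN-gamma. The counts for Pam3CSK4 against Control rest on 2 treated libraries: 10 members were lower without Pam3CSK4 replicate 1, and 11 without Pam3CSK4 replicate 2, where the number of all genes called lower was 1561 and 1463, beside 2344 with every library. Without Control replicate 3, 11 members were lower in IFN-gamma against Control, where 2729 of all genes were lower, beside 2361 with every library. In Pam3CSK4+IFN-gamma against Pam3CSK4, 9 members were lower and 3 higher without Control replicate 3 (820 and 1185 of all genes, beside 332 and 663 with every library), and 1 was lower without Pam3CSK4 replicate 2 (103 of all genes). Without the 3 libraries rich in mural and fibroblast markers, 21 members were lower in Pam3CSK4 against Control, 20 in Pam3CSK4+IFN-gamma against IFN-gamma, 20 in Pam3CSK4+IFN-gamma against Control, 11 in IFN-gamma against Control and 12 in Pam3CSK4+IFN-gamma against Pam3CSK4; all genes called lower then numbered 2998, 2140, 2879, 2663 and 922 in the same order. The last comparison gained 8 lower members, with log2 changes of -0.73 for Ch25h, -0.35 for Cyp51, -0.52 for Fdft1, -0.75 for Hsd17b7, -0.39 for Lss, -0.55 for Msmo1, -0.57 for Sqle and -0.43 for Stard4. It also gained 3 higher members, at 0.41 for Ebp, 0.39 for Mvd and 0.41 for Npc2.

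**Figure D1:**
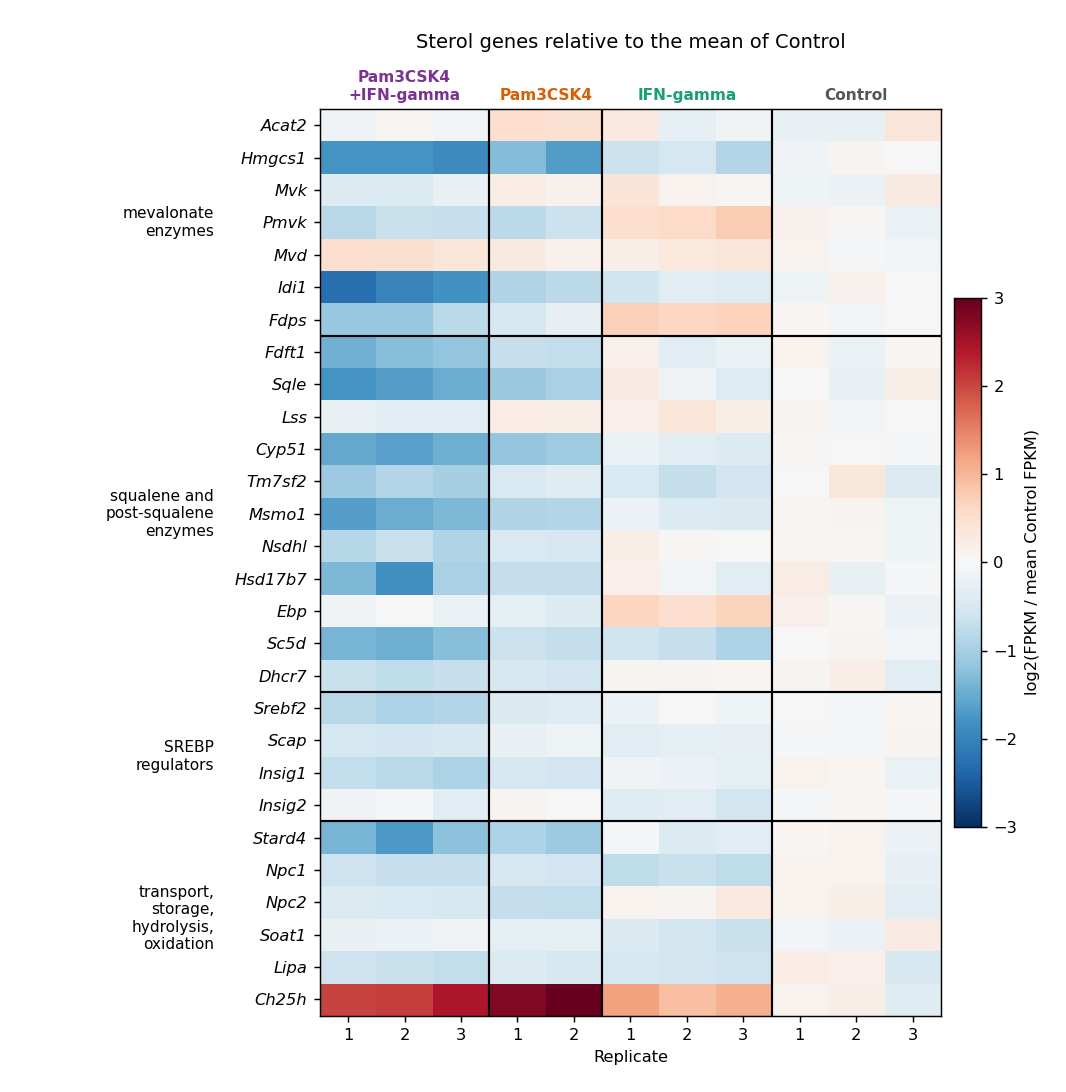
Level of each of the 28 genes (rows, grouped by role) in each library (columns) as log2 of FPKM over the mean Control FPKM; blue is below that mean and red above it, and the scale is limited to 3 in each direction. The enzyme rows are mostly blue in the Pam3CSK4+IFN-gamma and Pam3CSK4 columns, and Ch25h is red in every treated library.

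In the mevalonate stage the summed level of the 7 enzymes was 38.3 to 39.7 FPKM in Pam3CSK4+IFN-gamma, 43.1 to 46.6 FPKM in Pam3CSK4, 66.3 to 69.4 FPKM in IFN-gamma and 70.6 to 74.0 FPKM in Control, with no overlap between groups. Hmgcs1, with a mean of 37.7 FPKM in Control, weighs most in the Control sum. By gene, IFN-gamma against Control gave 3 of the 7 higher and 1 lower, with a median log2 change of 0.294. Of all genes, 20.0% were higher and 21.6% lower there. Hmgcs1, which makes HMG-CoA, was at 10.8, 10.9 and 10.0 FPKM in the Pam3CSK4+IFN-gamma libraries, 15.4 and 11.8 FPKM in the Pam3CSK4 libraries, 24.1, 26.0 and 20.5 FPKM in the IFN-gamma libraries, and 35.1, 39.9 and 38.2 FPKM in the Control libraries. The 4 groups did not overlap, and the treated groups were all below Control. Hmgcs1 was at 35.6% of its Control level in Pam3CSK4 (log2 change -1.49, SE 0.14, adjusted p = 4.34e-05), at 66.8% in IFN-gamma (log2 change -0.58, SE 0.12, adjusted p = 0.00398) and at 29.9% in Pam3CSK4+IFN-gamma (log2 change -1.74, SE 0.12, adjusted p = 4.18e-06). Its level in Pam3CSK4+IFN-gamma was 44.7% of that in IFN-gamma (log2 change -1.16, SE 0.12, adjusted p = 9.52e-05). Log2 changes come from scaled counts and need not equal ratios of FPKM.

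Idi1, the isomerase that readies isoprenoid units for chain building, was at 1.03, 1.23 and 1.41 FPKM in the Pam3CSK4+IFN-gamma libraries, 2.65 and 2.87 FPKM in the Pam3CSK4 libraries, 3.28, 3.98 and 3.78 FPKM in the IFN-gamma libraries, and 4.45, 5.41 and 5.03 FPKM in the Control libraries. Its groups did not overlap either, and both agents together gave the lowest libraries. The change was -0.86 in Pam3CSK4 against Control (adjusted p = 0.00319), -1.93 in Pam3CSK4+IFN-gamma against Control, and it also fell in Pam3CSK4+IFN-gamma against Pam3CSK4 (log2 change -1.07, SE 0.17, adjusted p = 0.00367).

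Fdps and Pmvk were higher with IFN-gamma alone and lower wherever Pam3CSK4 had been given. Fdps, which makes farnesyl diphosphate, was at 3.28, 3.29 and 4.10 FPKM in the Pam3CSK4+IFN-gamma libraries, 5.02 and 6.04 FPKM in the Pam3CSK4 libraries, 11.8, 11.1 and 11.6 FPKM in the IFN-gamma libraries, and 7.48, 6.85 and 7.27 FPKM in the Control libraries. No groups overlapped, with IFN-gamma above Control and both Pam3CSK4 groups below it. Fdps rose in IFN-gamma against Control (log2 change 0.77, SE 0.11, adjusted p = 0.000582) and fell to 30.9% in Pam3CSK4+IFN-gamma, against its IFN-gamma level (log2 change -1.70, SE 0.11, adjusted p = 6.77e-06). The smaller change in Pam3CSK4 against Control (log2 change -0.40, SE 0.13, adjusted p = 0.0305) did not pass without Pam3CSK4 replicate 1, at a log2 change of -0.26 and adjusted p = 0.213. Fdps shares 26.7% of its exon bases with the same-strand gene Gm43738, which had 375 counts against 7550 for Fdps.

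Pmvk, a kinase of mevalonate phosphate, was at 3.77, 4.26 and 4.17 FPKM in the Pam3CSK4+IFN-gamma libraries, 3.92 and 4.27 FPKM in the Pam3CSK4 libraries, 9.54, 10.0 and 11.3 FPKM in the IFN-gamma libraries, and 7.39, 6.88 and 5.88 FPKM in the Control libraries. The 2 groups with Pam3CSK4 overlapped each other and lay below all Control libraries, and IFN-gamma lay above them. Pmvk rose in IFN-gamma against Control (log2 change 0.71, SE 0.14, adjusted p = 0.00374), and was lower in Pam3CSK4 against Control (log2 change -0.74, SE 0.17, adjusted p = 0.00635) and in Pam3CSK4+IFN-gamma against IFN-gamma (log2 change -1.35, SE 0.15, adjusted p = 0.000123). Without Pam3CSK4 replicate 1 the change in Pam3CSK4 against Control was -0.66 with adjusted p = 0.0513.

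Mvk, the kinase that acts before Pmvk, was at 1.26, 1.27 and 1.43 FPKM in the Pam3CSK4+IFN-gamma libraries, 1.95 and 1.83 FPKM in the Pam3CSK4 libraries, 2.20, 1.81 and 1.73 FPKM in the IFN-gamma libraries, and 1.52, 1.48 and 2.04 FPKM in the Control libraries. Only the Pam3CSK4+IFN-gamma libraries stood apart, below all others. Mvk fell in Pam3CSK4+IFN-gamma against IFN-gamma (log2 change -0.54, SE 0.14, adjusted p = 0.0154); without Pam3CSK4+IFN-gamma replicate 1 the adjusted p was 0.062. Mvd, which decarboxylates mevalonate diphosphate, did not fall: it rose in Pam3CSK4+IFN-gamma against Control (log2 change 0.53, SE 0.11, adjusted p = 0.00364) and in IFN-gamma against Control (log2 change 0.39, SE 0.11, adjusted p = 0.0213), and its change in Pam3CSK4 against Control was 0.18 (adjusted p = 0.26). Without IFN-gamma replicate 3 the Mvd change in IFN-gamma against Control had adjusted p = 0.0727. Acat2, a thiolase that starts the pathway, passed in none of the comparisons; its log2 change in Pam3CSK4 against Control was 0.48 (adjusted p = 0.0661), and 0.64 (adjusted p = 0.0064, higher) without the 3 libraries rich in mural and fibroblast markers.

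From squalene onward the 11 enzymes summed to 44.0 to 46.5 FPKM in Pam3CSK4+IFN-gamma, 58.2 to 59.3 FPKM in Pam3CSK4, 81.6 to 94.5 FPKM in IFN-gamma and 90.1 to 99.4 FPKM in Control; IFN-gamma and Control overlapped. Of the 11, 8 were lower in Pam3CSK4 against Control, where 21.4% of all genes were lower. Sqle, which makes squalene epoxide, was at 1.52, 1.69 and 1.88 FPKM in the Pam3CSK4+IFN-gamma libraries, 2.46 and 2.71 FPKM in the Pam3CSK4 libraries, 6.23, 4.92 and 4.07 FPKM in the IFN-gamma libraries, and 5.35, 4.55 and 5.94 FPKM in the Control libraries. The 2 groups with Pam3CSK4 were separate from each other and below the other groups, which overlapped. Sqle was at 48.6% of Control in Pam3CSK4 (log2 change -1.04, SE 0.16, adjusted p = 0.000805) and at 33.3% of IFN-gamma in Pam3CSK4+IFN-gamma (log2 change -1.58, SE 0.14, adjusted p = 4.14e-05).

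Cyp51, which removes a methyl group from lanosterol, was at 5.93, 5.53 and 6.22 FPKM in the Pam3CSK4+IFN-gamma libraries, 7.67 and 8.08 FPKM in the Pam3CSK4 libraries, 14.8, 13.4 and 12.8 FPKM in the IFN-gamma libraries, and 17.4, 17.2 and 16.6 FPKM in the Control libraries. All groups were separate, in the order Control, IFN-gamma, Pam3CSK4 and Pam3CSK4+IFN-gamma from high to low. In IFN-gamma against Control, Cyp51 did not pass with every library (adjusted p = 0.0654). Cyp51 passed there as lower in 3 of 17 alternatives, among them the one without the 3 libraries (log2 change -0.34, adjusted p = 0.00759). It fell in Pam3CSK4 against Control (log2 change -1.13, SE 0.10, adjusted p = 3.17e-05) and in Pam3CSK4+IFN-gamma against IFN-gamma (log2 change -1.22, SE 0.089, adjusted p = 1.06e-05). Cyp51 shares 3.76% of its exon bases with Akap9 on the opposite strand.

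Msmo1, a methyl sterol oxidase, was at 3.65, 4.10 and 4.50 FPKM in the Pam3CSK4+IFN-gamma libraries, 6.12 and 6.19 FPKM in the Pam3CSK4 libraries, 10.1, 8.63 and 8.49 FPKM in the IFN-gamma libraries, and 11.8, 12.2 and 10.3 FPKM in the Control libraries. Its groups lay in the same order with no overlap. The change was -0.92 in Pam3CSK4 against Control (adjusted p = 0.000925) and -1.16 in Pam3CSK4+IFN-gamma against IFN-gamma (adjusted p = 0.000137). It was also lower in IFN-gamma against Control without the 3 libraries (log2 change -0.42, adjusted p = 0.00565). Hsd17b7, a sterol ketone reductase, was at 1.34, 0.953 and 1.75 FPKM in the Pam3CSK4+IFN-gamma libraries, 2.10 and 2.07 FPKM in the Pam3CSK4 libraries, 3.83, 3.21 and 2.73 FPKM in the IFN-gamma libraries, and 3.98, 2.95 and 3.33 FPKM in the Control libraries. IFN-gamma and Control overlapped, and both Pam3CSK4 groups were below them. It fell in Pam3CSK4+IFN-gamma against IFN-gamma (log2 change -1.28, SE 0.22, adjusted p = 0.00171), while its call in Pam3CSK4 against Control (adjusted p = 0.0369) did not pass without Pam3CSK4 replicate 2 (adjusted p = 0.143).

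Sc5d, a late desaturase, was one of 2 synthesis enzymes lower with either agent alone, Hmgcs1 being the other, and it was at 7.35, 7.02 and 7.94 FPKM in the Pam3CSK4+IFN-gamma libraries, 12.3 and 11.8 FPKM in the Pam3CSK4 libraries, 12.6, 12.0 and 10.1 FPKM in the IFN-gamma libraries, and 18.9, 20.5 and 18.3 FPKM in the Control libraries. Pam3CSK4 and IFN-gamma overlapped each other, below Control and above Pam3CSK4+IFN-gamma. The changes were -0.70 in Pam3CSK4 against Control, -0.64 in IFN-gamma against Control and -1.28 in Pam3CSK4+IFN-gamma against Control; Pam3CSK4+IFN-gamma against Pam3CSK4 gave log2 change -0.59, SE 0.12, adjusted p = 0.0123, or 0.083 as the adjusted p without Pam3CSK4 replicate 1.

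Ebp and Lss rose with IFN-gamma alone. Ebp, a sterol isomerase, was at 8.89, 9.54 and 8.32 FPKM in the Pam3CSK4+IFN-gamma libraries, 7.80 and 7.20 FPKM in the Pam3CSK4 libraries, 14.8, 13.4 and 15.3 FPKM in the IFN-gamma libraries, and 10.5, 9.69 and 8.38 FPKM in the Control libraries. IFN-gamma lay above all other libraries, and Pam3CSK4 below them. Lss, the lanosterol synthase, was at 0.851, 0.781 and 0.790 FPKM in the Pam3CSK4+IFN-gamma libraries, 1.17 and 1.14 FPKM in the Pam3CSK4 libraries, 1.11, 1.29 and 1.13 FPKM in the IFN-gamma libraries, and 1.06, 0.935 and 0.992 FPKM in the Control libraries. Its Pam3CSK4+IFN-gamma libraries were below all others. Ebp rose in IFN-gamma against Control (log2 change 0.70, SE 0.13, adjusted p = 0.00246), as did Lss (log2 change 0.34, SE 0.10, adjusted p = 0.022), and both fell in Pam3CSK4+IFN-gamma against IFN-gamma, by 0.71 for Ebp and 0.55 for Lss on the log2 scale. Without IFN-gamma replicate 2 the Lss change in IFN-gamma against Control had adjusted p = 0.0831.

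Among the remaining post-squalene enzymes, Nsdhl, Dhcr7 and Fdft1 fell in both Pam3CSK4 against Control and Pam3CSK4+IFN-gamma against IFN-gamma, with log2 changes of -0.51 and -0.88 for Nsdhl, -0.55 and -0.79 for Dhcr7, and -0.74 and -1.20 for Fdft1. In Pam3CSK4 against Control without Pam3CSK4 replicate 2, adjusted p was 0.0856 for Nsdhl and 0.151 for Dhcr7. Fdft1, the squalene synthase, shares 18.3% of its exon bases with Ctsb on the opposite strand, which had 1868662 counts against 4072 for Fdft1. Whether the counting used strand is not given in the sources used here, so its values are uncertain; Ctsb itself changed by -1.08 in Pam3CSK4 against Control. Tm7sf2, a sterol reductase, fell in Pam3CSK4+IFN-gamma against Control (log2 change -0.90, SE 0.21, adjusted p = 0.00664) and shares 12.1% of its exon bases with the same-strand gene Vps51. Without the 3 libraries, Tm7sf2 also passed as lower in Pam3CSK4 against Control (log2 change -0.65, adjusted p = 0.0119) and in IFN-gamma against Control (log2 change -0.76, adjusted p = 0.0073), and Ebp passed as lower in Pam3CSK4 against Control (log2 change -0.50, adjusted p = 0.00526).

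**Figure D2:**
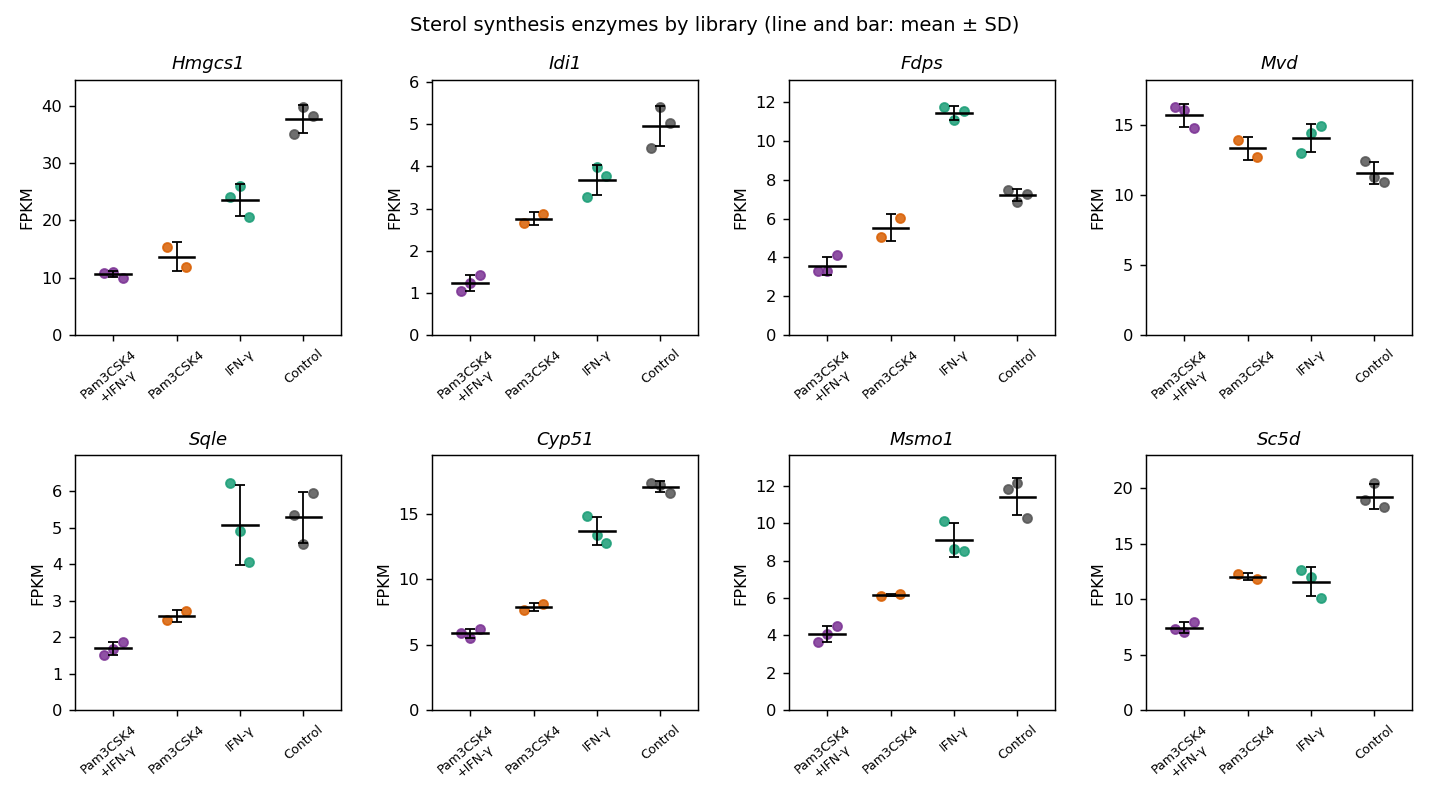
FPKM of 8 synthesis enzymes in each library (points), with the group mean and SD, for Pam3CSK4+IFN-gamma (n = 3), Pam3CSK4 (n = 2), IFN-gamma (n = 3) and Control (n = 3); every axis starts at 0. Pam3CSK4+IFN-gamma libraries are the lowest of all for Hmgcs1, Idi1, Fdps, Sqle, Cyp51, Msmo1 and Sc5d, and the highest group for Mvd.

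Start-site windows, from 250 bases before to 50 after each annotated start, matched 23 of the 28 members in RefSeq (GRCm38.p6), 29 windows in all. Of these, 6 are shown because they belong to enzymes that fell (Hmgcs1, Idi1, Cyp51, Msmo1), to an enzyme that did not (Mvd) and to the one gene that rose in each comparison with Control (Ch25h). Sequences run 5′ to 3′ along the gene. Capitals mark the core of the sterol response element bound by SREBP proteins (TCACNCCAC) and the NF-Y box (CCAAT), a factor known to act with SREBP, on either strand.
Hmgcs1, chr13:119690101-119690400, plus strand: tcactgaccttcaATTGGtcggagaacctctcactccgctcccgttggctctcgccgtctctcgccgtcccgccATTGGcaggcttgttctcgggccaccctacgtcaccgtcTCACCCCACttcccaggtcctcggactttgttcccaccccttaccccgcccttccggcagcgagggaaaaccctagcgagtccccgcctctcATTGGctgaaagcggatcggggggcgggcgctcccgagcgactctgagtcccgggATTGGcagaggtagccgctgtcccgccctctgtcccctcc
Idi1, chr13:8885356-8885655, plus strand: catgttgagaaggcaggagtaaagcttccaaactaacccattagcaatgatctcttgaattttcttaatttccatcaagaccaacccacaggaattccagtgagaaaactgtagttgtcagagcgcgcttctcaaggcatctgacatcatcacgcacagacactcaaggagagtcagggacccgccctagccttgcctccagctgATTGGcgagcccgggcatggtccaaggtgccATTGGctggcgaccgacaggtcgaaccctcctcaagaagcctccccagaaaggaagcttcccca
Cyp51, chr5:4104648-4104947, minus strand: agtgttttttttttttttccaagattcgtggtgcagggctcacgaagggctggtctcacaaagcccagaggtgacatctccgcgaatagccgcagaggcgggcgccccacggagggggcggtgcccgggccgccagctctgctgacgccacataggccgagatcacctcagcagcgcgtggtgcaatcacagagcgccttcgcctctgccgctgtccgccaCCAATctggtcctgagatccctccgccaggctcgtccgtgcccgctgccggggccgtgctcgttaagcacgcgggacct
Msmo1, chr8:64733529-64733828, minus strand: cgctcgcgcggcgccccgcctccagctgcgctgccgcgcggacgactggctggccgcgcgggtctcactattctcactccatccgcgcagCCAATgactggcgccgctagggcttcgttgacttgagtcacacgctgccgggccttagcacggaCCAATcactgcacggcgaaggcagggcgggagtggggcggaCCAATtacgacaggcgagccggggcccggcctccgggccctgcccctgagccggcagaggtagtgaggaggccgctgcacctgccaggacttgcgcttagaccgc
Mvd, chr8:122443373-122443672, minus strand: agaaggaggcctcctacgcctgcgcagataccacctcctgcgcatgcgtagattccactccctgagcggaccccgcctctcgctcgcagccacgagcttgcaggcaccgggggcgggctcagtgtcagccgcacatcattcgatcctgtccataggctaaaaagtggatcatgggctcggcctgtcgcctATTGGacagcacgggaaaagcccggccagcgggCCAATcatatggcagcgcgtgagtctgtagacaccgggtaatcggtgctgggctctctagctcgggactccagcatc
Ch25h, chr19:34475099-34475398, minus strand: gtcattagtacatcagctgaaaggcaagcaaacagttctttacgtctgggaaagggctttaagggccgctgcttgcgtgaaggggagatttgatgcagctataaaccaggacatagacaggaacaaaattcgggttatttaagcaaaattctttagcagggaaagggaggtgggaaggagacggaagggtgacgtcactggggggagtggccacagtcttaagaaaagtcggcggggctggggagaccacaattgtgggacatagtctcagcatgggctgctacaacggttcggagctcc
The sterol response element core was in the Hmgcs1 window, starting at base -137 from the start site, and in no other member window, 1 of 29, against 1.24% of all 32851 windows. Only the pattern TCACNCCAC was searched, so a window without a match may still hold a variant of the element. The NF-Y box was in 20 of 29 member windows (69.0%), against 37.4% of all windows, and the Sp1 box GGGCGG in 24 (82.8%), against 35.7%; all were searched on both strands. The NF-Y box stands in the Mvd window as it does in those shown for Hmgcs1, Idi1, Cyp51 and Msmo1, and the Ch25h window holds neither capitalised motif. No window was found for Fdps, Fdft1, Sqle, Stard4 or Npc1. The interferon-gamma activated site TTCNNNGAA was found in the Ebp window alone among the members, against 8.30% of all windows.

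The 4 regulators had a median log2 change of -0.32 in Pam3CSK4 against Control and -0.59 in Pam3CSK4+IFN-gamma against Control. They summed to 42.5 to 45.8 FPKM in Pam3CSK4+IFN-gamma, 56.7 to 56.8 FPKM in Pam3CSK4, 64.3 to 70.0 FPKM in IFN-gamma and 73.4 to 76.6 FPKM in Control. Srebf2, encoding SREBP2, was at 20.6, 18.9 and 19.8 FPKM in the Pam3CSK4+IFN-gamma libraries, 26.8 and 27.6 FPKM in the Pam3CSK4 libraries, 32.5, 36.7 and 33.3 FPKM in the IFN-gamma libraries, and 36.2, 35.3 and 37.8 FPKM in the Control libraries. IFN-gamma and Control overlapped, and the 2 groups with Pam3CSK4 were lower and separate. Srebf2 fell in Pam3CSK4 against Control (log2 change -0.44, SE 0.088, adjusted p = 0.00366) and in Pam3CSK4+IFN-gamma against IFN-gamma (log2 change -0.80, SE 0.078, adjusted p = 6.81e-05). Its change in Pam3CSK4+IFN-gamma against Pam3CSK4 was -0.35 (adjusted p = 0.0332), or adjusted p = 0.213 without Pam3CSK4 replicate 2.

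Insig1, itself an SREBP2 target, was at 15.8, 15.1 and 13.7 FPKM in the Pam3CSK4+IFN-gamma libraries, 18.8 and 17.8 FPKM in the Pam3CSK4 libraries, 24.7, 23.4 and 21.6 FPKM in the IFN-gamma libraries, and 28.7, 27.6 and 23.2 FPKM in the Control libraries. IFN-gamma and Control overlapped here too. It fell in Pam3CSK4 against Control (log2 change -0.56, SE 0.14, adjusted p = 0.0109; adjusted p = 0.0743 without Pam3CSK4 replicate 2) and in Pam3CSK4+IFN-gamma against IFN-gamma (log2 change -0.65, SE 0.12, adjusted p = 0.00327). It was lower in IFN-gamma against Control too when the 3 libraries were left out (log2 change -0.26, adjusted p = 0.0246). Insig2, which does the same work but is not known as an SREBP2 target, was at 4.11, 4.28 and 3.55 FPKM in the Pam3CSK4+IFN-gamma libraries, 4.66 and 4.43 FPKM in the Pam3CSK4 libraries, 3.44, 3.53 and 3.03 FPKM in the IFN-gamma libraries, and 4.32, 4.65 and 4.33 FPKM in the Control libraries. Pam3CSK4 and Control overlapped, and its one call was a fall in IFN-gamma against Control (log2 change -0.32, SE 0.10, adjusted p = 0.0351), which had adjusted p = 0.116 without Control replicate 2 and passed in 10 of 17 alternatives. Insig2 was higher without the 3 libraries in Pam3CSK4+IFN-gamma against IFN-gamma (log2 change 0.34, adjusted p = 0.0275). Scap, the escort, was at 5.24, 5.11 and 5.42 FPKM in the Pam3CSK4+IFN-gamma libraries, 6.47 and 6.83 FPKM in the Pam3CSK4 libraries, 6.07, 6.33 and 6.39 FPKM in the IFN-gamma libraries, and 7.43, 7.36 and 8.00 FPKM in the Control libraries. No groups overlapped, and Scap fell in Pam3CSK4+IFN-gamma against Control (log2 change -0.44, SE 0.068, adjusted p = 0.000608). Without the 3 libraries it was also lower in Pam3CSK4 against Control (log2 change -0.22, adjusted p = 0.0413).

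Ch25h rose most of the 28. It was at 536, 559 and 706 FPKM in the Pam3CSK4+IFN-gamma libraries, 899 and 1063 FPKM in the Pam3CSK4 libraries, 302, 245 and 274 FPKM in the IFN-gamma libraries, and 142, 150.2 and 103 FPKM in the Control libraries. All 4 groups were separate, with Pam3CSK4 highest and Control lowest. Against Control, Ch25h was at 729% in Pam3CSK4 (log2 change 2.87, SE 0.22, adjusted p = 1.33e-05), 220.0% in IFN-gamma (log2 change 1.14, SE 0.20, adjusted p = 0.00155) and 480.0% in Pam3CSK4+IFN-gamma (log2 change 2.26, SE 0.20, adjusted p = 1.93e-05). In Pam3CSK4+IFN-gamma against Pam3CSK4 the change was -0.60 (adjusted p = 0.126), and -0.73 (adjusted p = 0.00284, lower) without the 3 libraries. Ch25h shares 11.5% of its exon bases with the opposite-strand gene Gm26902, which had 3535 counts against 120152. Lipa lies next to it among the members on chromosome 19, with 17182 bases between them.

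The lysosomal acid lipase Lipa was at 286, 277 and 263 FPKM in the Pam3CSK4+IFN-gamma libraries, 333 and 316 FPKM in the Pam3CSK4 libraries, 306, 304 and 289 FPKM in the IFN-gamma libraries, and 519, 489.8 and 316 FPKM in the Control libraries. Control replicate 3 was far below the other Control libraries, at the level of the treated ones, and is the library with the most mural and fibroblast transcripts. Lipa fell in Pam3CSK4+IFN-gamma against Control (log2 change -0.61, SE 0.20, adjusted p = 0.028; adjusted p = 0.0989 without Control replicate 1), and its changes in Pam3CSK4 and in IFN-gamma against Control did not pass. Without the 3 libraries both passed, at -0.705 in Pam3CSK4 (adjusted p = 6.01e-05) and -0.704 in IFN-gamma (adjusted p = 8.55e-05).

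Npc1, the lysosomal cholesterol exporter in the membrane, was at 15.0, 14.3 and 14.1 FPKM in the Pam3CSK4+IFN-gamma libraries, 16.3 and 15.3 FPKM in the Pam3CSK4 libraries, 13.6, 14.4 and 13.6 FPKM in the IFN-gamma libraries, and 24.8, 24.6 and 19.4 FPKM in the Control libraries. All treated libraries were below all Control libraries, and it was lower in Pam3CSK4 (log2 change -0.57, SE 0.15, adjusted p = 0.0142), in IFN-gamma (log2 change -0.64, SE 0.13, adjusted p = 0.00434) and in Pam3CSK4+IFN-gamma (log2 change -0.58, SE 0.13, adjusted p = 0.00548), each against Control. Without Pam3CSK4 replicate 2 the first had adjusted p = 0.0913. Npc1 shares 4.52% of its exon bases with Rmc1 on the opposite strand. Npc2, its soluble partner, was at 442, 428 and 422 FPKM in the Pam3CSK4+IFN-gamma libraries, 359 and 352 FPKM in the Pam3CSK4 libraries, 638, 621 and 718 FPKM in the IFN-gamma libraries, and 636, 667 and 463 FPKM in the Control libraries. It was lowest in Pam3CSK4, and IFN-gamma and Control overlapped. Npc2 fell in Pam3CSK4 against Control (log2 change -0.76, SE 0.19, adjusted p = 0.0119; 0.0719 as the adjusted p without Pam3CSK4 replicate 2) and in Pam3CSK4+IFN-gamma against IFN-gamma (log2 change -0.62, SE 0.17, adjusted p = 0.0192; 0.0662 without IFN-gamma replicate 3). In Pam3CSK4+IFN-gamma against Control its change did not pass (adjusted p = 0.0978), and without the 3 libraries it was -0.54 (adjusted p = 0.00137, lower).

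Stard4, a cytosolic sterol carrier and SREBP2 target, followed the enzymes, at 2.09, 1.67 and 2.34 FPKM in the Pam3CSK4+IFN-gamma libraries, 2.90 and 2.57 FPKM in the Pam3CSK4 libraries, 5.40, 4.17 and 4.36 FPKM in the IFN-gamma libraries, and 5.78, 5.88 and 4.87 FPKM in the Control libraries. IFN-gamma and Control overlapped, with both Pam3CSK4 groups below them. It fell in Pam3CSK4 against Control (log2 change -1.04, SE 0.18, adjusted p = 0.00164) and in Pam3CSK4+IFN-gamma against IFN-gamma (log2 change -1.20, SE 0.16, adjusted p = 0.000423). In IFN-gamma against Control, Stard4 was lower without the 3 libraries (log2 change -0.39, adjusted p = 0.0278). Soat1, which makes cholesteryl esters for storage, was at 15.1, 15.6 and 16.4 FPKM in the Pam3CSK4+IFN-gamma libraries, 14.4 and 14.6 FPKM in the Pam3CSK4 libraries, 13.0, 11.9 and 11.1 FPKM in the IFN-gamma libraries, and 16.6, 15.5 and 20.8 FPKM in the Control libraries. It was lowest in IFN-gamma, below all other libraries, and Pam3CSK4+IFN-gamma and Control overlapped. Soat1 fell in IFN-gamma against Control (log2 change -0.44, SE 0.082, adjusted p = 0.00237) and was higher in Pam3CSK4+IFN-gamma against IFN-gamma (log2 change 0.38, SE 0.082, adjusted p = 0.00677). Its change in Pam3CSK4 against Control was -0.29 (adjusted p = 0.0315), a call that passed in 7 of 17 alternatives; the adjusted p was 0.161 without Pam3CSK4 replicate 1 and 0.0508 without the 3 libraries.

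**Figure D3:**
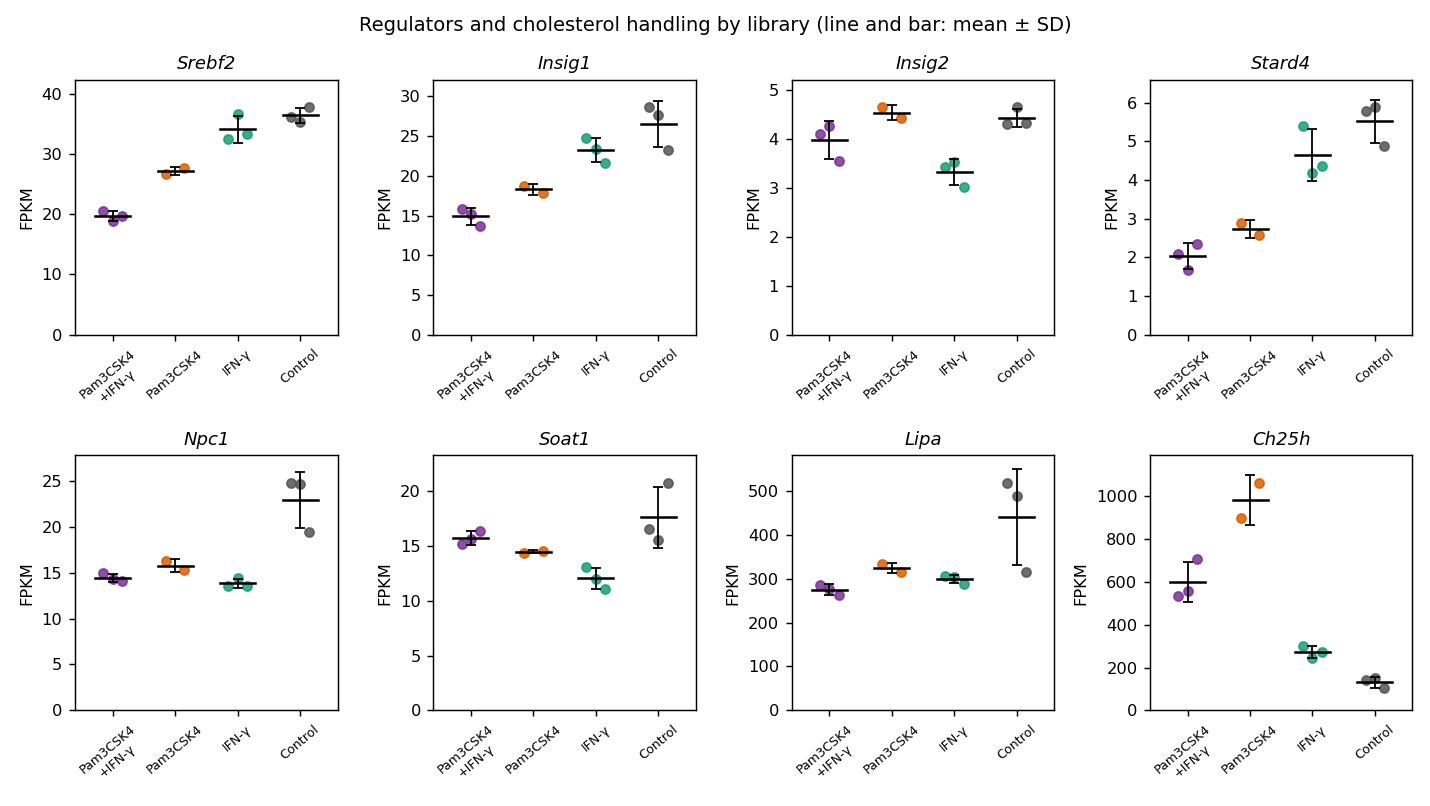
FPKM of the regulators Srebf2, Insig1 and Insig2 and of 5 handling genes in each library (points), with the group mean and SD, for Pam3CSK4+IFN-gamma (n = 3), Pam3CSK4 (n = 2), IFN-gamma (n = 3) and Control (n = 3); every axis starts at 0. Ch25h is highest in Pam3CSK4 and lowest in Control, and Control replicate 3 is the low Control point for Lipa and Npc1.

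Whether the Pam3CSK4 change differed with and without IFN-gamma was tested as an interaction. This is the log2 change in Pam3CSK4+IFN-gamma against IFN-gamma minus that in Pam3CSK4 against Control. The other treatment period of the single-agent cultures is not given, so the time since Pam3CSK4 may differ too. An effect of IFN-gamma and one of that time cannot be told apart here. The interaction passed for 5 of the 28, 4 lower and 1 higher, where 8.01% of all genes were lower and 8.01% higher. Fdps had the largest such difference among the enzymes (log2 change -1.30, SE 0.17, adjusted p = 0.00149), then Lss (log2 change -0.74, SE 0.15, adjusted p = 0.0107) and Mvk (log2 change -0.70, SE 0.21, adjusted p = 0.0488; a call that passed in 4 of 17 alternatives, with adjusted p up to 0.136). For Ch25h the difference was negative (log2 change -1.74, SE 0.29, adjusted p = 0.00503), its rise being 2.87 without IFN-gamma and 1.13 with it. For Soat1 it was positive (log2 change 0.67, SE 0.12, adjusted p = 0.00815). Without the 3 libraries 4 more members passed: Idi1 (-0.89) and Srebf2 (-0.38) as lower, and Lipa (0.61) and Npc1 (0.76) as higher. How many of all genes passed in that run is not reported here, so this gain has no background beside it. The change was below 0 in both comparisons for 20 members. Of all 10938 genes, 5789 were below 0 in Pam3CSK4 against Control and 5640 in Pam3CSK4+IFN-gamma against IFN-gamma. How many were below 0 in both was not counted. Across the 28 genes, which are not independent replicates, Pearson's r was 0.75 and Spearman's rho 0.71. The correlation over all genes was not worked out.

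**Figure D4:**
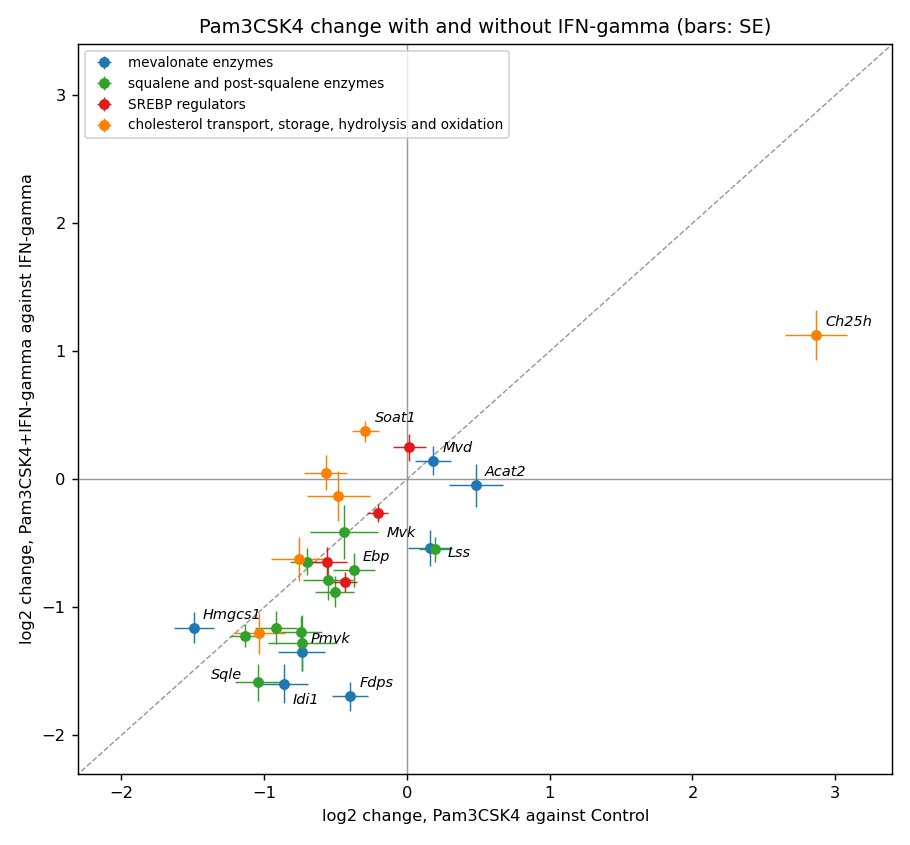
Log2 change of each of the 28 genes after Pam3CSK4 without IFN-gamma (horizontal) and with IFN-gamma (vertical), with SE bars, coloured by role; the dashed line marks equal changes. Most genes lie in the lower left part, where both are below 0; Fdps lies below the line and Ch25h far right of it.

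Of 29 other sterol genes tested, 8 were lower and 5 higher in Pam3CSK4 against Control, beside 21.4% and 20.0% of all genes, with a median log2 change of -0.20 beside -0.043 over all genes. Called as lower were, among others, Cyp27a1 (-2.67), the mitochondrial sterol hydroxylase, Scarb1 (-2.04), a lipoprotein receptor, and Soat2 (-1.49). In Pam3CSK4+IFN-gamma against IFN-gamma, Cyp27a1 (-2.73) and Scarb1 (-1.63) also fell.

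SREBP-1, the sister factor of fatty acid synthesis, had 13 listed genes tested. Of these, 6 were lower and 2 higher in Pam3CSK4 against Control, where 21.4% of all genes were lower and 20.0% higher, and the median was -0.87 beside -0.043. Among those called were Acss2 at 2.11, Lpin1 at -2.07 and Mid1ip1 at -1.46; the furthest from 0 in the list, Scd1 at -5.17 (SE 2.81), did not pass (adjusted p = 0.168). Of 9 genes of the liver X receptors, which sense oxysterols, 3 were higher and 5 lower in Pam3CSK4 against Control (median -0.52), among them Nr1h3 (3.37), which encodes one of those receptors, Apoe (-2.56) and Arl4c (-1.74). The sterol exporter Abca1 had the largest interaction of that list (2.05, adjusted p = 0.000437).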

How the data were processed

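The deposited table holds raw read counts and FPKM per gene for 11 libraries; the authors' steps, per the submitters' processing notes, used TopHat2 2.1.0, Cufflinks 2.1.1 and Cuffdiff with the mouse build mm10. The strand setting of the counting is not given in the sources used here. FPKM values, as deposited by the authors, were used for levels and for the filter (at least 1 FPKM in at least 2 libraries). Libraries held 15033702 to 20321017 counts.

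Counts were tested with edgeR 4.0.16 in R 4.3.3: TMM scaling, quasi-likelihood F tests on 4 group means over all 11 libraries, and Benjamini-Hochberg adjustment over 10938 genes at 0.05. SE was taken as the size of the log2 change over the root of F. The same steps were tested on simulated data. Alternatives used DESeq2 1.42.0, limma 3.58.1 on log2(FPKM + 1), other scaling, no filter, a replicate block, each library left out, and the 3 libraries rich in mural and fibroblast markers left out.

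The members and lists were chosen with earlier results of these data known. Values in every library were given for up to 3 called members with the largest change per role and comparison and for a panel of 12; the other lists have at most 3 named genes per comparison, those with the largest called change. Some genes of those lists are not reported here. Promoter windows are RefSeq's (GRCm38.p6), and exon overlaps come from GENCODE M21, which held all 28 gene IDs. P-values adjusted over the members alone were not used.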

Additional observations from a re-analysis of the deposited data

Results flagged for a closer look

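The Pam3CSK4 change differed with and without IFN-gamma for 5 of the 28 members, by edgeR's interaction test adjusted over all genes. This is near the share of all genes tested, of which 8.01% were lower and 8.01% higher. The interaction log2 change was -0.70 for Mvk, with Pam3CSK4 changes of -0.54 with IFN-gamma and 0.16 without it. It was -1.30 for Fdps, from -1.70 with IFN-gamma and -0.40 without it, and -0.74 for Lss, from -0.55 and 0.20 in the same order. Soat1 had 0.67, from 0.38 with IFN-gamma and -0.29 without it. Ch25h had -1.74, from 1.13 with IFN-gamma and 2.87 without it. The Mvk interaction passed in 4 of 17 alternatives, with adjusted p up to 0.136; in limma on log2(FPKM + 1) it was -0.44 (adjusted p = 0.0723).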

How the results depend on the processing

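Of 82 calls of members over the 6 comparisons, 62 held in every alternative run: 10 of 19 in Pam3CSK4 against Control, 8 of 11 in IFN-gamma against Control, 20 of 21 in Pam3CSK4+IFN-gamma against Control, 19 of 22 in Pam3CSK4+IFN-gamma against IFN-gamma, 1 of 4 in Pam3CSK4+IFN-gamma against Pam3CSK4 and 4 of 5 in the interaction. Where a count moved, the cause was not tested. Members lower in Pam3CSK4+IFN-gamma against Pam3CSK4 numbered 11 with DESeq2, 2 with no filter on low values, 9 with limma, 2 with the replicate block and 12 (3 higher) without the 3 libraries rich in mural and fibroblast markers. For the interaction, 2 were higher and 7 lower with DESeq2, 2 higher with limma and 3 higher without the 3 libraries. In IFN-gamma against Control 11 were lower with limma and 11 without the 3 libraries, where 2 were higher in Pam3CSK4 against Control. With each library left out in turn, the members higher in Pam3CSK4 against Control ranged over 1 to 2 and those lower over 10 to 21, those lower in IFN-gamma against Control over 4 to 11, those higher in Pam3CSK4+IFN-gamma against Pam3CSK4 over 0 to 3 and those lower over 1 to 9, and those higher in the interaction over 1 to 3. A lone Pam3CSK4 library is then assumed to vary like the other groups. Except where given above, the counts of all genes called in the alternative runs are not reported here. The member counts of those runs therefore have no background beside them.

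Sign changes came in small log2 changes that were not called. There were 62 over all alternatives and comparisons, and only some are given here. With no filter, Pam3CSK4+IFN-gamma against Control gave 0.021 for Insig2 and 0.026 for Soat1. With limma, IFN-gamma against Control gave -0.058 for Sqle and -0.091 for Srebf2. With the replicate block, Insig2 was at -0.049 in Pam3CSK4 against Control and Npc1 at 0.047 in Pam3CSK4+IFN-gamma against Pam3CSK4. Without the 3 libraries, Sqle was at -0.075 in IFN-gamma against Control, Insig2 at -0.048 in Pam3CSK4 against Control, Acat2 at 0.133 in Pam3CSK4+IFN-gamma against IFN-gamma, Npc1 at 0.006 in Pam3CSK4+IFN-gamma against Pam3CSK4 and Insig1 at 0.13 in the interaction. With each library left out, Sqle (-0.108 to 0.158) and Srebf2 (-0.045 to 0.062) changed sign in IFN-gamma against Control, Insig2 in Pam3CSK4 against Control (-0.049 to 0.089), Insig2 (-0.136 to 0.019) and Soat1 (-0.114 to 0.01) in Pam3CSK4+IFN-gamma against Control, Acat2 in Pam3CSK4+IFN-gamma against IFN-gamma (-0.166 to 0.106), Npc1 in Pam3CSK4+IFN-gamma against Pam3CSK4 (-0.048 to 0.015) and Insig1 in the interaction (-0.176 to 0.041).

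Replicate numbers are not tied by the labels to an animal or day. Over 15 same-number pairs the correlation of deviations ran from -0.67 to 0.63, and 6 pairs were over 0.1. In all, 2 of 11 libraries were closest to their own number. IFN-gamma replicate 1 and Control replicate 3, both rich in mural and fibroblast markers, correlated at 0.763. Deviations of the 2 Pam3CSK4 libraries mirror each other by construction. The check therefore cannot show whether libraries with the same number share an animal or day. The replicate block moved no other count of members by over 1.5 times. The Pam3CSK4 group has 2 libraries, which limits every comparison that uses it.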
